A study of Mus musculus with 16 samples.

Results

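The genes described here are 10 immediate early genes, Fos, Fosb, Jun, Junb, Jund, Egr1, Egr2, Egr3, Ier2 and Dusp1, followed in fetal and adult B-cell precursors. They were chosen by symbol: every array probe whose description carried one of the symbols was taken, which gave 12 of the 41174 probes on the array, and a match by RefSeq accession gave the same 12. Junb and Ier2 had 2 probes each, the other genes 1, and the array lists Jund under its older symbol Jund1. All 12 probes met the filter on dim signal, and all 10 genes were among the 22280 genes and unnamed transcripts that were tested. The arrays hold mRNA of 4 groups from BALB/c mice: Fr.B/C cells of fetal liver, Fr.A cells of fetal liver, Fr.B/C cells of adult bone marrow and Fr.A cells of adult bone marrow, with 4 arrays each and 16 in all. In the Hardy scheme Fr.A is the pre-pro-B stage and Fr.B/C the pro-B stage that follows it. Each fetal liver sort used the embryos of 1 litter at gestation day 16, on average 8, and each bone marrow sort pooled 16 female adults, with 4 sorts per tissue. The series title calls the tissue wild type, and the labels name no drug treatment or sort gate. Every array set a sample, amplified from 100 ng of total RNA, against the same reference RNA pooled from 6 cell lines (DN3, EL4, J558, P388d, R1 and RS2), so that each value is a log2 ratio of sample over reference, and a value of 0 means the level of the reference for that probe.

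Immediate early genes are transcribed within minutes of a signal at the cell surface, without new protein synthesis. Mitogen-activated protein (MAP) kinases reach many of them through the serum response factor SRF and its ternary complex partners, which bind the CArG box, and through CREB. The FOS and JUN proteins pair to form the AP-1 transcription factors, EGR proteins are zinc-finger activators, and DUSP1 is a phosphatase that removes the activating phosphates from MAP kinases. In early B cells, signals through the interleukin 7 receptor and the pre-B-cell receptor are known to act through these kinases. In mouse cells the same genes are also known to respond to tissue dissociation and sorting.

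By array, the median sample signal ranged over intensities of 71.0 to 162, the share of probes detected clearly over background over 52.9% to 68.3%, and the correlation with another array across genes over 0.619 to 0.981. Fetal liver arrays were scanned on 2 days and bone marrow arrays on 4 other days, so that tissue and scan day cannot be told apart. Fr.B/C and Fr.A arrays shared scan days within each tissue, except that bone marrow Fr.B/C array 1 was scanned alone. Of the B-lineage markers, 11 of 12 were measured, and all 11 were well above background on every array. Their mean log2 ratio was 0.58 to 0.74 in fetal liver Fr.B/C, -0.03 to 0.16 in fetal liver Fr.A, 1.87 to 2.27 in bone marrow Fr.B/C and 0.94 to 1.25 in bone marrow Fr.A. These means include Dntt, which was at -6.17 to -5.48 in fetal liver Fr.B/C and at -5.77 to -4.64 in fetal liver Fr.A. In bone marrow it was at 2.22 to 3.83 in Fr.B/C and at 2.57 to 4.84 in Fr.A. The gap of the means between tissues therefore leans on this gene. In bulk samples such as these, fewer cells of a type and less RNA per cell cannot be told apart. Values are tested in a limma model across all genes, in which a gene passed at a Benjamini-Hochberg adjusted p under 0.05. Its p-values measure the spread between these arrays. The labels give 4 sorts per tissue and 4 replicates per group, but arrays 1 and 2, and arrays 3 and 4, which are of opposite dye, deviated alike from their group mean in 7 of 8 pairs (r from -0.14 to 0.57), and every other pair deviated oppositely (r from -0.88 to -0.42). Deviations from a mean of 4 sum to 0, which by itself draws such correlations below 0. In every group arrays 1 and 2 were also scanned on other days than arrays 3 and 4. Whether such pairs share RNA was not tested, and calls with each pair averaged are given with the array sets. Errors beside a difference are standard errors (SE).

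From Fr.A to Fr.B/C, 5 of these genes were higher at the later stage in both tissues. In fetal liver 5 of the 10 genes rose (Jun, Jund, Egr1, Ier2 and Dusp1) and none fell. In bone marrow 6 rose (the same 5 and Egr2) and 1 fell (Junb). The largest step in each tissue was that of Egr1, at 3.52-fold in fetal liver and 3.49-fold in bone marrow. Fos, Fosb and Egr3 passed in neither tissue. Among all 22280 genes and transcripts, 22.7% passed in fetal liver, 9.96% higher and 12.7% lower, and 32.2% passed in bone marrow, 13.5% higher and 18.7% lower. The median difference of the 10 genes was 0.46 in fetal liver and 0.70 in bone marrow on the log2 scale, beside 0.00104 and -0.0377 over all genes tested in fetal liver and in bone marrow. In each tissue the arrays of both stages did not overlap for 4 of the 10 genes: Jun, Jund, Egr1 and Dusp1 in fetal liver, and Jun, Egr1, Egr2 and Dusp1 in bone marrow. Over all genes tested, 24.1% did not overlap in fetal liver and 29.5% in bone marrow. Of all calls in fetal liver 43.9% were higher, a share that was 31.6% when each array was only centred on its median in place of the loess step.

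**Figure D1:**
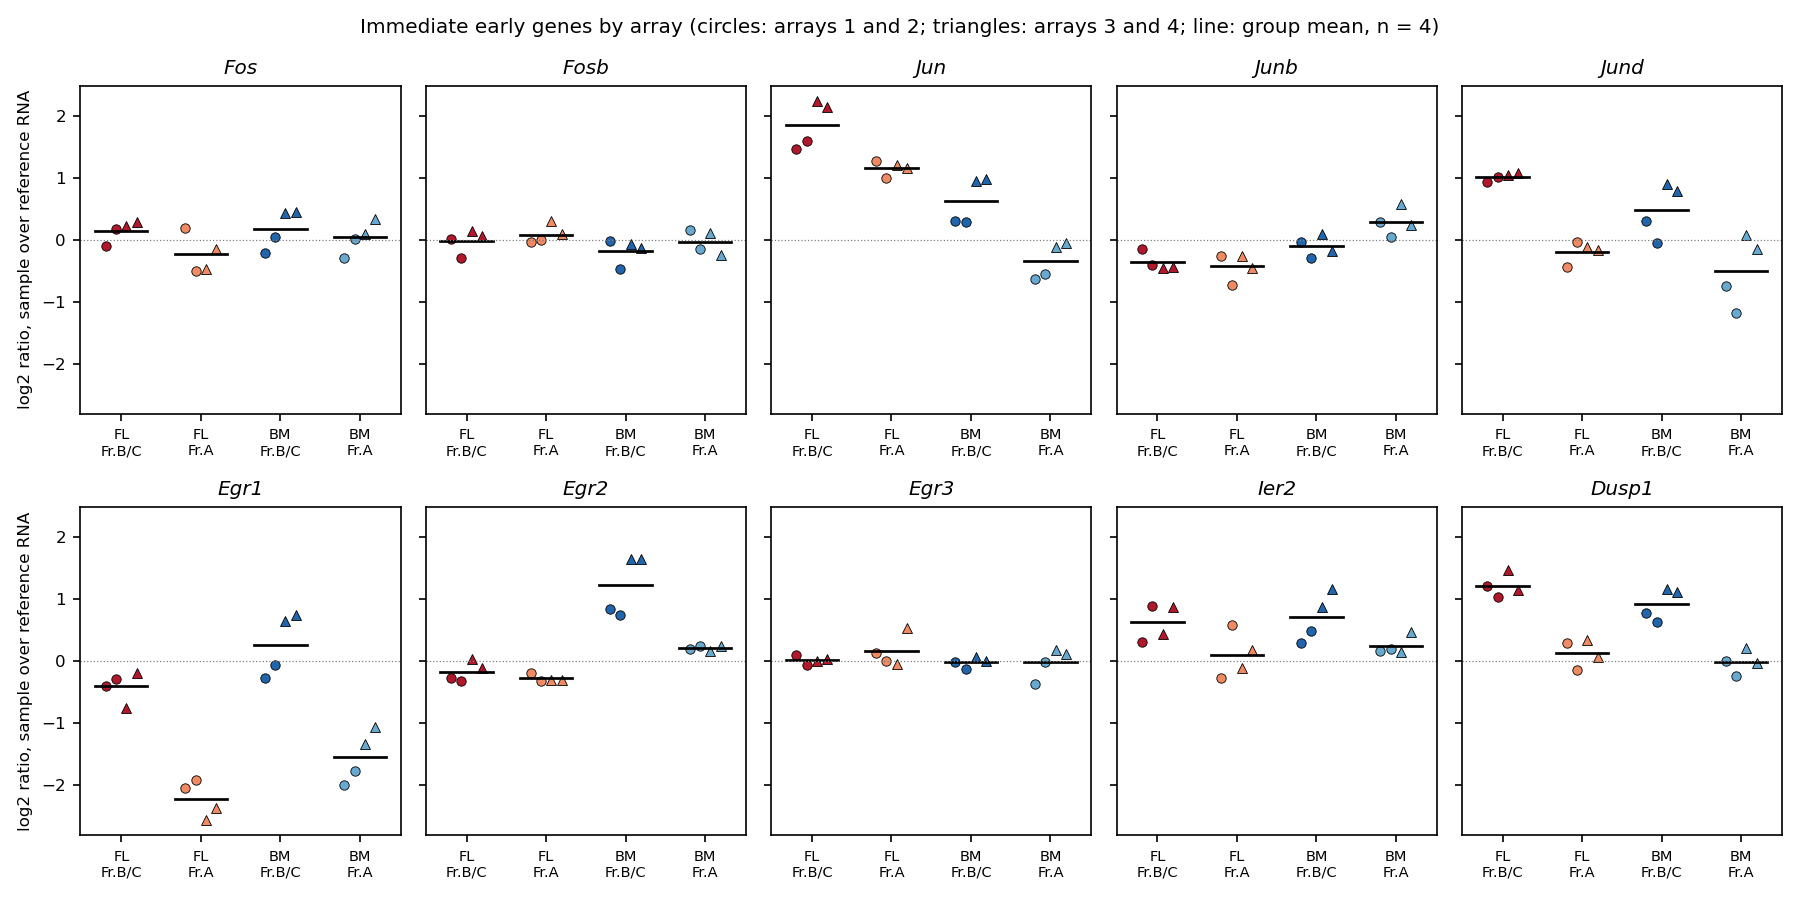
Log2 ratio of sample over reference RNA (vertical axis) for the 10 genes in the 4 groups (horizontal axis, FL for fetal liver and BM for bone marrow). Points are arrays, circles for numbers 1 and 2 and triangles for 3 and 4, and lines are means of 4 arrays. Egr1 lies between -2.56 and -1.07 on the Fr.A arrays and between -0.75 and 0.75 on the Fr.B/C arrays.

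Egr1, the zinc-finger activator that is induced by MAP kinase signals in most cell types, showed the largest fold change of stage in the set. Its log2 ratio on arrays 1 to 4 was -0.40, -0.29, -0.75 and -0.19 in fetal liver Fr.B/C, against -2.04, -1.91, -2.56 and -2.36 in fetal liver Fr.A. In bone marrow it was -0.28, -0.06, 0.64 and 0.75 in Fr.B/C, against -1.99, -1.78, -1.33 and -1.07 in Fr.A. Every Fr.B/C array lay above every Fr.A array, of either tissue. The step was 1.82 ± 0.23 in fetal liver (adjusted p = 2.91e-05) and 1.80 ± 0.23 in bone marrow (adjusted p = 2.16e-05). The steps differed by 0.01 between the tissues, with a 95% confidence interval from -0.69 to 0.72.

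Dusp1, the phosphatase that switches off the kinases upstream of this set, rose at the same step. It was at 1.22, 1.04, 1.47 and 1.15 in fetal liver Fr.B/C, against 0.29, -0.15, 0.33 and 0.06 in fetal liver Fr.A. In bone marrow it was at 0.78, 0.63, 1.16 and 1.12 in Fr.B/C, against -0.01, -0.24, 0.22 and -0.03 in Fr.A. The groups did not overlap in either tissue. The step was 1.08 ± 0.12 in fetal liver (2.12-fold, adjusted p = 5.83e-06) and 0.94 ± 0.12 in bone marrow (1.92-fold, adjusted p = 1.81e-05). The calls of Egr1 and Dusp1 at this step held in both tissues under all 11 other settings and without any 1 array.

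Upstream sequences were looked up for genes of the set, since several of them moved together at this step. Windows of the 250 bases before the transcription start were taken from RefSeq (GRCm38.p6) for 7 of the 10 genes, leaving out Egr1, Egr3 and Ier2, and searched on both strands. The motifs were the AP-1 site (TGACTCA or its complement TGAGTCA), the cyclic AMP response element CRE (TGACGTCA), the EGR site (GCGGGGGCG or GCGTGGGCG) and the CArG box, none of which overlapped another. Dusp1 held 1 CRE, which begins at position -143 from the start site and is printed in capitals in the window of chr17:26508473-26508722 on the minus strand. Jun and Junb, printed with it as the pair of JUN genes that moved in opposite directions in bone marrow by the brighter Junb probe, held none of the 4 motifs in chr4:95052223-95052472 and chr8:84978749-84978998, both on the minus strand. All are written 5′ to 3′ on the strand of the gene.
Dusp1: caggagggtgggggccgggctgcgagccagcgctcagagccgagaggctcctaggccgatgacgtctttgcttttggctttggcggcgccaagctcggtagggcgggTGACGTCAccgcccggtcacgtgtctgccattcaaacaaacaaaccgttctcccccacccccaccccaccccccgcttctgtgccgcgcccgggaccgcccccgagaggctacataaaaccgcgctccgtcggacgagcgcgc
Jun: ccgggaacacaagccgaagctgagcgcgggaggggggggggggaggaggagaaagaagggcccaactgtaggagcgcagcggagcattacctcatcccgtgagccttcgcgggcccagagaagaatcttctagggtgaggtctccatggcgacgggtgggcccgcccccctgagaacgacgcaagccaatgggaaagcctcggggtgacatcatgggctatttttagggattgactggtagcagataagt
Junb: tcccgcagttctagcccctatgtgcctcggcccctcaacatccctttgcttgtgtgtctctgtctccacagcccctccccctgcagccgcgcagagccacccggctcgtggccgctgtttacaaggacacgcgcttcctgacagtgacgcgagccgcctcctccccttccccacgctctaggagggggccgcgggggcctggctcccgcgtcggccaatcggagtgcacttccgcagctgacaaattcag
Of 32851 RefSeq windows of the same length, 1.55% held a CRE, 4.46% an AP-1 site, 3.06% an EGR site and 1.47% a CArG box. Fosb held 1 EGR site at position -50, while Fos and Jund held none of the 4 motifs in their windows. A match is a description of letters and shows no binding, and a window without a match says nothing about the factor.

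The JUN genes did not move as one. Jun, the main JUN partner of FOS in AP-1 in most cell types, was at 1.46, 1.60, 2.24 and 2.13 in fetal liver Fr.B/C, against 1.26, 1.00, 1.21 and 1.15 in fetal liver Fr.A. In bone marrow it was at 0.29, 0.29, 0.94 and 0.98 in Fr.B/C, against -0.63, -0.56, -0.12 and -0.06 in Fr.A. The 4 groups thus fell into 4 bands that did not overlap. The step was 0.70 ± 0.21 in fetal liver (1.62-fold, adjusted p = 0.0225) and 0.97 ± 0.21 in bone marrow (1.96-fold, adjusted p = 0.00185). The fetal liver call was lost with median centring and without any of fetal liver Fr.A arrays 2 and 4 or Fr.B/C arrays 3 and 4 (adjusted p up to 0.0841).

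Jund, the JUN gene that is expressed in most resting cells, was at 0.93, 1.02, 1.04 and 1.08 in fetal liver Fr.B/C, against -0.45, -0.04, -0.12 and -0.16 in fetal liver Fr.A, with no overlap. In bone marrow it was at 0.30, -0.06, 0.90 and 0.79 in Fr.B/C, against -0.74, -1.18, 0.07 and -0.15 in Fr.A, where 1 array of Fr.B/C lay below the highest of Fr.A. The step was 1.21 ± 0.24 in fetal liver (2.31-fold, adjusted p = 0.00157) and 0.98 ± 0.24 in bone marrow (1.97-fold, adjusted p = 0.00509).

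Junb, a JUN protein that can oppose c-Jun at AP-1 sites, fell at this step in bone marrow by its brighter probe. That probe was at -0.04, -0.30, 0.10 and -0.19 in Fr.B/C of bone marrow, against 0.29, 0.05, 0.57 and 0.23 in Fr.A, a difference of -0.39 ± 0.10 (adjusted p = 0.00503). In fetal liver it was at -0.14, -0.41, -0.46 and -0.45 in Fr.B/C, against -0.26, -0.73, -0.27 and -0.46 in Fr.A, a difference of 0.07 ± 0.10 (adjusted p = 0.714). The other Junb probe, which shares 22 of its 60 target bases with the first by the array files' coordinates, gave another picture. It was at 0.05, 0.17, 0.50 and 0.43 in fetal liver Fr.B/C, against -0.37, -0.42, -0.38 and -0.43 in fetal liver Fr.A, and the step of 0.69 ± 0.19 passed (adjusted p = 0.0141 over all probes). In bone marrow it was at 0.03, -0.03, 0.46 and 0.27 in Fr.B/C, against 0.01, -0.20, 0.83 and 0.60 in Fr.A, and the step of -0.13 ± 0.19 did not pass (adjusted p = 0.654). The stage change of Junb therefore depends on the probe in both tissues, and neither the fall in bone marrow nor the rise in fetal liver was seen by both. The fall in bone marrow was also lost with median centring.

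Ier2, an immediate early gene of a small nuclear protein family, also had probes that differed. Its brighter probe was at 0.31, 0.90, 0.43 and 0.87 in fetal liver Fr.B/C, against -0.27, 0.58, -0.10 and 0.18 in fetal liver Fr.A. In bone marrow it was at 0.29, 0.48, 0.87 and 1.17 in Fr.B/C, against 0.16, 0.20, 0.15 and 0.47 in Fr.A. The arrays overlapped in both tissues. The step was 0.53 ± 0.16 in fetal liver (adjusted p = 0.0225) and 0.46 ± 0.16 in bone marrow (adjusted p = 0.0346). The other probe was dim, with a median signal of 78.1 to 105 by group where the first had 2048 to 3037, and was well above background on only 2 arrays each of fetal liver Fr.A and bone marrow Fr.B/C. It was 0.24 ± 0.17 higher in fetal liver Fr.B/C (adjusted p = 0.359) and fell in bone marrow, by a difference of -0.50 ± 0.17 on the log2 scale (adjusted p = 0.0327), the opposite direction. In fetal liver the call of the brighter probe was lost with median centring, without a dye term, and without any of Fr.A arrays 1, 3 and 4 or Fr.B/C arrays 2 and 4 (adjusted p up to 0.233). In bone marrow it was lost in 6 of 11 other settings and without any of Fr.A arrays 2 and 4 or Fr.B/C arrays 3 and 4.

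**Figure D2:**
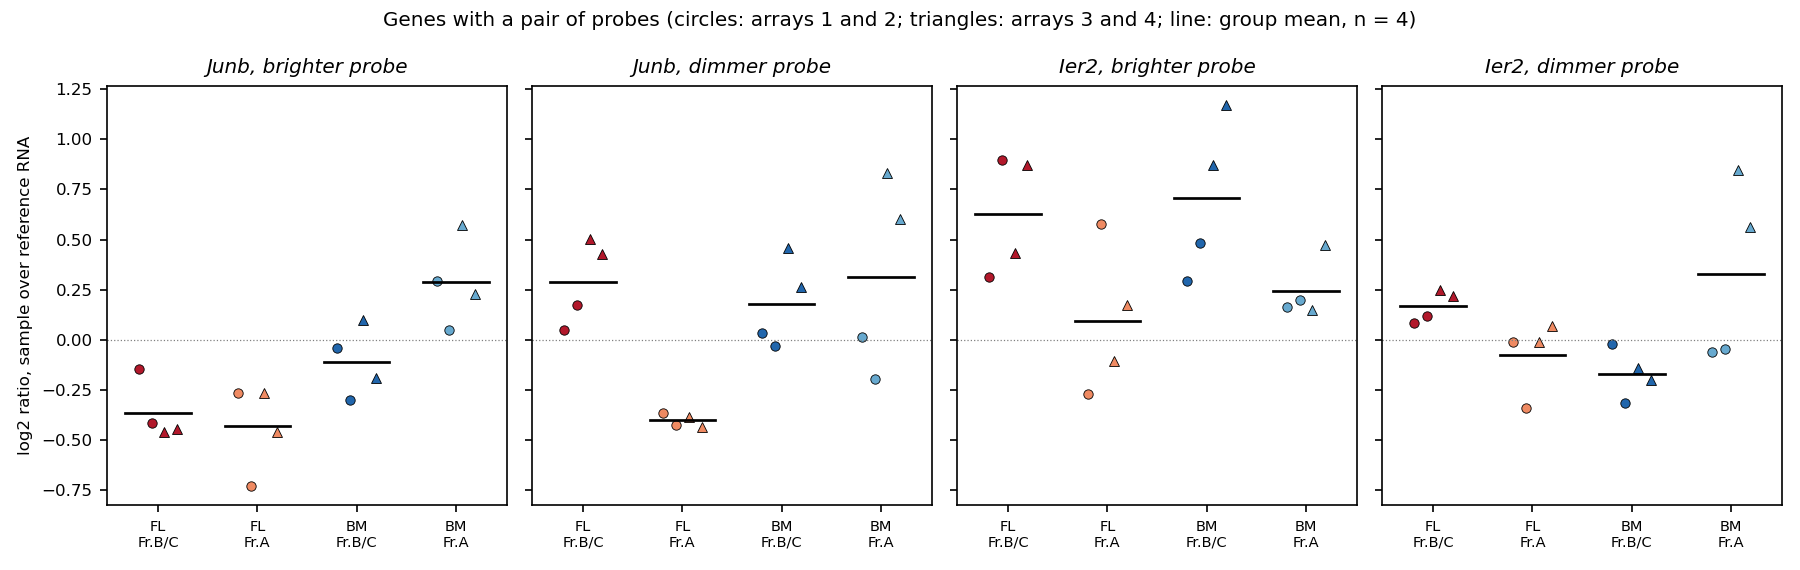
Log2 ratio of sample over reference RNA (vertical axis) for both probes of Junb and both of Ier2 in the 4 groups (horizontal axis), with points for arrays and lines for means of 4 arrays. In bone marrow the brighter Ier2 probe averages 0.71 in Fr.B/C and 0.24 in Fr.A, and the dimmer one -0.17 in Fr.B/C and 0.33 in Fr.A.

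Fos, the founding FOS gene of AP-1, was at -0.11, 0.18, 0.22 and 0.29 in fetal liver Fr.B/C, against 0.19, -0.51, -0.47 and -0.15 in fetal liver Fr.A. In bone marrow it was at -0.22, 0.04, 0.43 and 0.45 in Fr.B/C, against -0.30, 0.02, 0.09 and 0.34 in Fr.A. The groups overlapped in both tissues. The difference was 0.38 ± 0.18 in fetal liver (95% confidence interval -0.00438 to 0.77, adjusted p = 0.158) and 0.13 ± 0.18 in bone marrow (-0.25 to 0.52, adjusted p = 0.637). The fetal liver difference was 0.83 from the authors' deposited table (adjusted p = 0.106) and 1.00 from the processed signals (adjusted p = 0.0847). Without fetal liver Fr.A array 1, the high one of its group, the fetal liver difference was 0.55 and passed (adjusted p = 0.0289). Fosb, a FOS gene best known from neurons, had group means from -0.18 to 0.08. Its differences of stage were -0.11 ± 0.10 in fetal liver and -0.14 ± 0.10 in bone marrow. Signals were low for Fos and Fosb, with medians by group of 100 to 146 and of 90.2 to 136, though well above background on every array. Egr3, an EGR family member, was at the edge of detection: its probe was well above background on no Fr.B/C array of either tissue, on 1 of 4 fetal liver Fr.A arrays and on 3 of 4 bone marrow Fr.A arrays. No fold is given for it.

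Egr2, the EGR family member best known from myelination and from lymphocyte activation, was the gene of the set whose step differed between the tissues. In bone marrow it was at 0.84, 0.75, 1.64 and 1.65 in Fr.B/C, against 0.20, 0.25, 0.16 and 0.24 in Fr.A. In fetal liver it was at -0.27, -0.33, 0.03 and -0.12 in Fr.B/C, against -0.19, -0.32, -0.30 and -0.31 in Fr.A. Bone marrow Fr.B/C thus stood above the other 3 groups on all 4 of its arrays. The signal was low in fetal liver, with a median of 106 in Fr.B/C and 112 in Fr.A, against 299 and 150 in bone marrow. The step in bone marrow was 1.01 ± 0.17 (2.02-fold, adjusted p = 0.000322), against 0.11 ± 0.17 in fetal liver (95% confidence interval -0.27 to 0.48, adjusted p = 0.742). The fetal liver step minus the bone marrow step was -0.90 ± 0.25 (adjusted p = 0.0375), the only one of the 10 to pass, beside 7.34% of all genes tested. This call was not stable: it was lost in 5 of 11 other settings, with an adjusted p of 0.0534 without the filter on dim probes up to 0.486 with pairs of arrays averaged. It was also lost without any 1 of 12 arrays (adjusted p up to 0.0749), and kept only without fetal liver Fr.B/C array 3, bone marrow Fr.B/C array 1 or 2, or bone marrow Fr.A array 2. Its value stayed below 0 throughout, between -1.14 and -0.90 in the other settings and between -1.07 and -0.74 without 1 array.

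RefSeq lists 5 start sites of Egr2, and 4 of the 5 upstream windows held a CArG box. A pair of windows with different boxes is shown, chr10:67537316-67537565 and chr10:67537619-67537868 in GRCm38.p6, both on the plus strand and with the box in capitals from position -72. The other windows with a box overlap the second one and hold the same box at the same bases, so that box is counted more than once. Of all RefSeq windows of this length, 1.47% held a CArG box.
Egr2, first window: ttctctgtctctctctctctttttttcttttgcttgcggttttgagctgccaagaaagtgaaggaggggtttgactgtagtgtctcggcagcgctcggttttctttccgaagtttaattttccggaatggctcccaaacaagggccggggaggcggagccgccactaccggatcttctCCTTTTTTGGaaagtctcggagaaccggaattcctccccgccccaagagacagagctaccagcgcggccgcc
Egr2, second window: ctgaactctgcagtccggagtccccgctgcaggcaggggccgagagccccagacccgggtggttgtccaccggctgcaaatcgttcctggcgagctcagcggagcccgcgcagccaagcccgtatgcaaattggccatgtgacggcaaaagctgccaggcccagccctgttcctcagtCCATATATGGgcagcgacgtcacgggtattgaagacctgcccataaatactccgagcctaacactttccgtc
The array's single Egr2 probe does not say which start site was used.

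**Figure D3:**
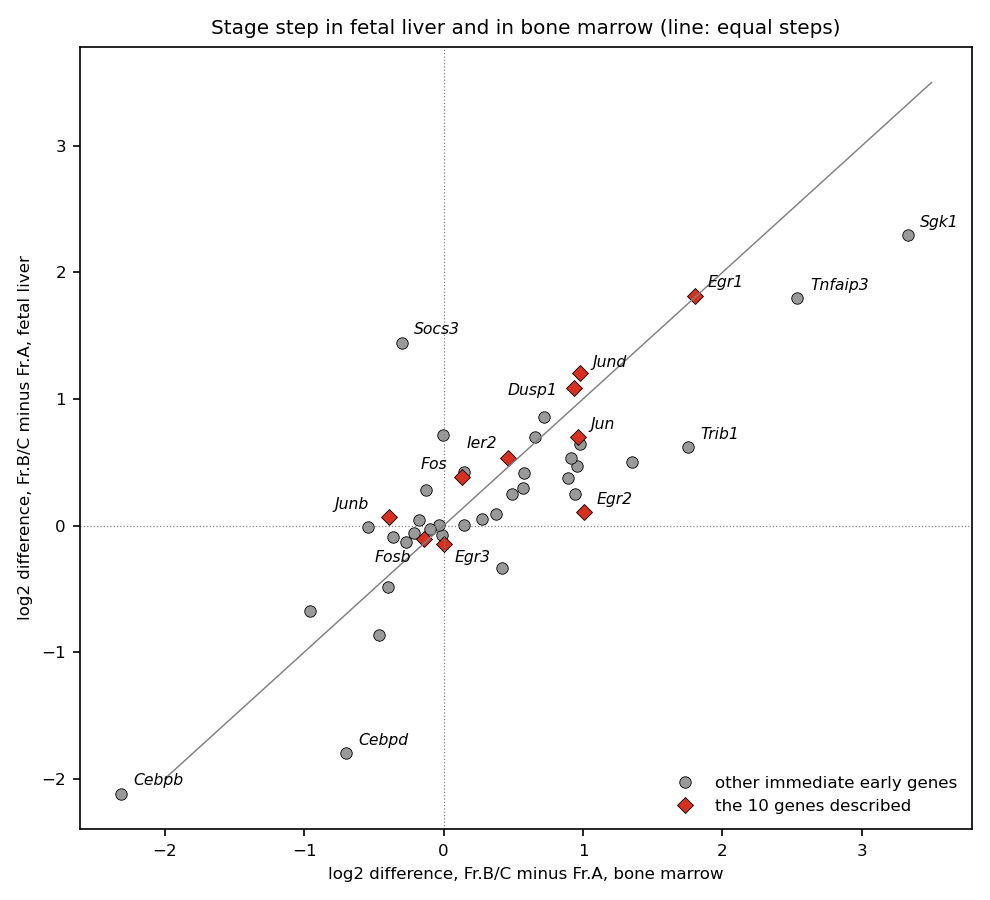
Log2 difference Fr.B/C minus Fr.A in fetal liver (vertical axis) against that in bone marrow (horizontal axis) for the 10 genes (diamonds) and 35 other immediate early genes (circles), with the line of equal steps. Egr1 lies on the line at 1.80 and 1.82, and Egr2 lies below it, at 0.11 in fetal liver and 1.01 in bone marrow.

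Markers of other cell types, apart from erythroid markers, moved with the stage as well. At this step 12.7% of all genes tested were lower in fetal liver and 18.7% in bone marrow, of 22.7% and 32.2% that passed. Plasmacytoid dendritic cell markers were lower in Fr.B/C for 6 of 8 genes in each tissue, and their mean log2 ratio was -1.02 to -0.83 in fetal liver Fr.B/C against 0.68 to 0.89 in fetal liver Fr.A, and -0.65 to -0.49 in bone marrow Fr.B/C against 0.91 to 1.12 in bone marrow Fr.A. No Fr.B/C array detected Siglech clearly over background. Of 13 myeloid markers, 7 were lower in Fr.B/C in fetal liver and 4 in bone marrow, with means of 1.15 to 1.84 in fetal liver Fr.B/C against 2.05 to 2.80 in Fr.A, and of 2.14 to 2.71 in bone marrow Fr.B/C against 2.67 to 3.53 in Fr.A. Of 10 measured natural killer and T cell markers of 12, 4 were lower and 1 higher in fetal liver, and 6 were lower in bone marrow. Their means were -1.53 to -1.29 in fetal liver Fr.B/C against -0.85 to -0.63 in Fr.A, and -0.85 to -0.73 in bone marrow Fr.B/C against -0.06 to 0.07 in Fr.A. No array of fetal liver or of bone marrow Fr.B/C detected Ncr1 clearly over background. Of the B-lineage markers 7 of 11 rose and 2 fell in each tissue. Of 10 erythroid markers 1 was lower in Fr.B/C in fetal liver and 0 passed in bone marrow. Their median difference was -0.02 in fetal liver and -0.20 in bone marrow. The part of these cells in the values of the 10 genes was not tested.

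Between the tissues, the 10 genes moved in both directions. In Fr.B/C, Jun was higher in fetal liver and Egr1 and Egr2 were lower, 3 of 10 genes beside 28.6% of all genes tested (13.9% higher, 14.7% lower). In Fr.A, Jun was higher and Junb, Egr1 and Egr2 were lower, 4 of 10 genes beside 29.3% (12.2% higher, 17.1% lower). These shares are near the background. The median difference of the 10 genes was 0.00397 in Fr.B/C and -0.0165 in Fr.A, beside 0.0135 and -0.0146 over all genes tested at the same stage. Fetal liver and bone marrow arrays were fully separate for Jun, Jund and Egr2 in Fr.B/C and for Jun, Junb and Egr2 in Fr.A, 3 of 10 genes at each stage beside 29.6% of all genes tested in Fr.B/C and 26.1% in Fr.A. Of all calls 48.4% were higher in Fr.B/C and 41.7% in Fr.A, shares that were 20.3% and 22.9% when arrays were only centred on their median.

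**Figure D4:**
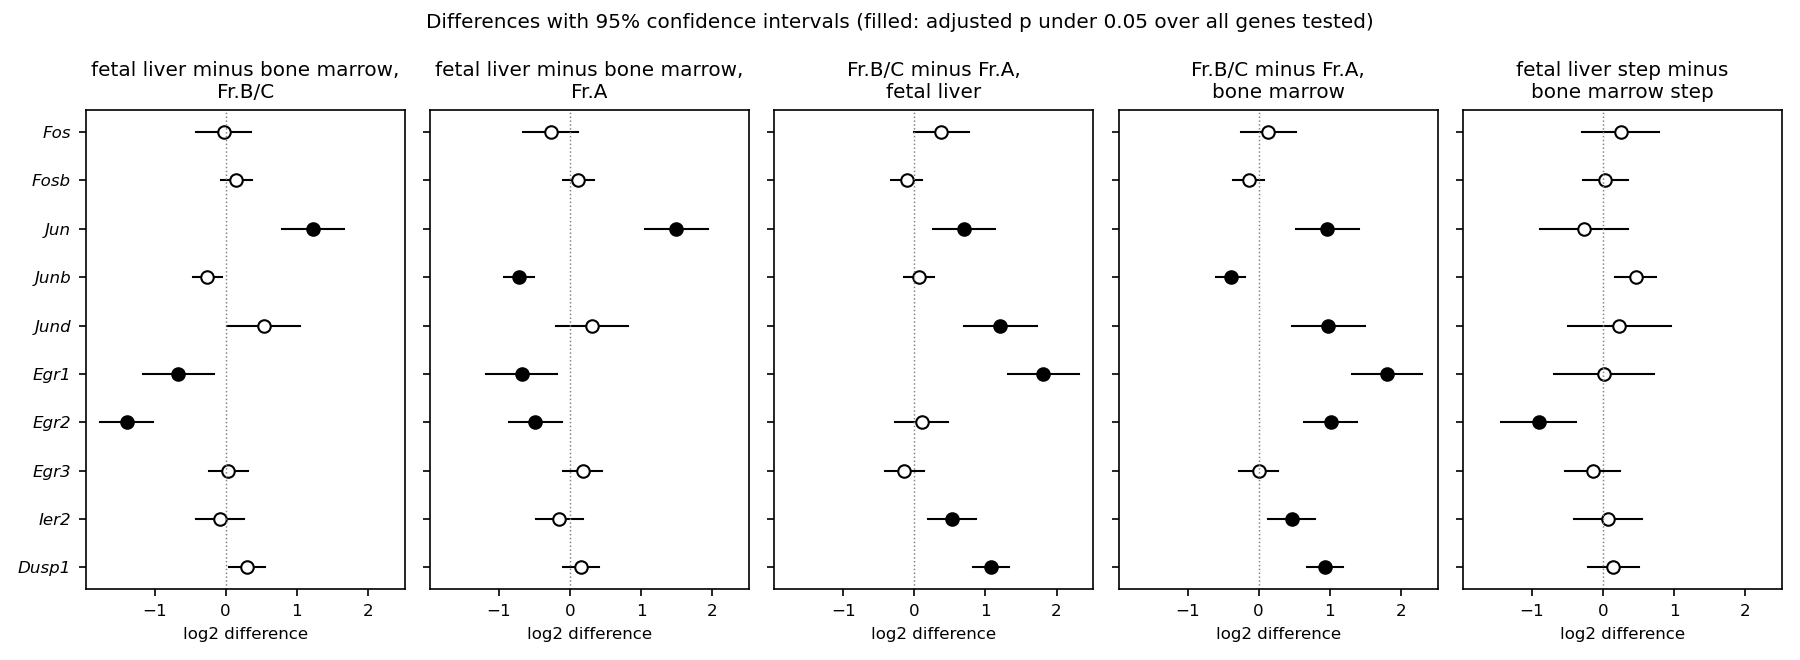
Log2 differences (horizontal axis) of the 10 genes (vertical axis) with 95% confidence intervals, for fetal liver minus bone marrow in Fr.B/C and in Fr.A, for Fr.B/C minus Fr.A in fetal liver and in bone marrow, and for the fetal liver step minus the bone marrow step. Filled points passed. Jun is filled to the right of 0 in the 4 comparisons of groups, and Egr2 is filled in the difference of steps at -0.90.

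Jun had the largest difference of tissue in Fr.A. It was 1.50 ± 0.21 higher in fetal liver Fr.A than in bone marrow Fr.A on the log2 scale (2.82-fold, adjusted p = 5.44e-05), with a mean of 1.16 in fetal liver and -0.34 in bone marrow. In Fr.B/C it was 1.23 ± 0.21 higher in fetal liver (2.34-fold, adjusted p = 0.000366), with a mean of 1.85 in fetal liver and 0.63 in bone marrow. Jund was 0.53 ± 0.24 higher in fetal liver Fr.B/C (adjusted p = 0.112) and 0.31 ± 0.24 higher in fetal liver Fr.A (adjusted p = 0.383), and passed at neither stage, although its Fr.B/C arrays did not overlap. With the replicate number as a block across all groups, the Fr.B/C differences of Jund, Dusp1 and Junb passed (adjusted p = 0.0307, 0.0156 and 0.0485). Dusp1 was 0.30 ± 0.12 higher in fetal liver Fr.B/C (adjusted p = 0.0773) and 0.15 ± 0.12 higher in fetal liver Fr.A (adjusted p = 0.394), and both values were below 0 with median centring, at -0.04 in Fr.B/C and -0.07 in Fr.A. Without bone marrow Fr.B/C array 4 the Fr.B/C difference of Dusp1 was 0.41 and passed (adjusted p = 0.0129). Fos, Fosb, Egr3 and Ier2 passed at neither stage. The differences of Fos, Fosb and Ier2 were between -0.08 and 0.15 in Fr.B/C and between -0.27 and 0.12 in Fr.A.

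Junb was lower in fetal liver Fr.A by both probes. The brighter probe had group means of -0.43 ± 0.22 in fetal liver Fr.A and 0.29 ± 0.22 in bone marrow Fr.A (SD, n = 4 each), a difference of -0.72 ± 0.10 (1.64-fold lower, adjusted p = 4.33e-05). The other probe also gave -0.72 ± 0.19 (adjusted p = 0.00949 over all probes). No fetal liver array reached the lowest bone marrow array by either probe. In Fr.B/C the brighter probe differed by -0.26 ± 0.10 (adjusted p = 0.0588) and the other by 0.11 ± 0.19 (adjusted p = 0.717). The first passed without fetal liver Fr.A array 2 (adjusted p = 0.0456). The difference between these differences of tissue was 0.46 ± 0.14 by the brighter probe and 0.82 ± 0.27 by the other, and passed by neither (adjusted p = 0.0547 and 0.0802). It passed by the brighter probe with the replicate number as a block within each tissue (0.46, adjusted p = 0.0233), with scan day as a fixed or random block, and without bone marrow Fr.A array 1 or 2 or fetal liver Fr.B/C array 3 (adjusted p from 0.0183 to 0.0482). The mean of both probes gave 0.64 (adjusted p = 0.0369). In the remaining 7 of 11 settings it did not pass, with an adjusted p of up to 0.600.

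Egr2 was lower in fetal liver at both stages. In Fr.B/C the difference was -1.39 ± 0.17 (2.63-fold lower, adjusted p = 2.44e-05). It was larger from the authors' deposited table, at -2.05, and from the scanner's processed signals, at -2.09. In Fr.A it was -0.49 ± 0.17 (adjusted p = 0.0465), a call lost without the filter on dim probes, with scan day as a random block and without any 1 of 11 arrays, the 8 Fr.A arrays of both tissues among them (adjusted p up to 0.0986). It was -0.91 from the authors' deposited table and -0.95 from the processed signals.

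Egr1 was lower in fetal liver, with differences of -0.67 ± 0.23 in Fr.B/C (adjusted p = 0.0435) and -0.68 ± 0.23 in Fr.A (adjusted p = 0.0394), and overlapping arrays at both stages. The differences were larger on arrays 3 and 4 than on arrays 1 and 2. On arrays 1 and 2 the difference was -0.17 in Fr.B/C and -0.09 in Fr.A, whereas on arrays 3 and 4 it was -1.16 in Fr.B/C and -1.26 in Fr.A. The Fr.B/C call was lost in 5 of 10 other settings and the Fr.A call in 3 of 10. The Fr.B/C call was also lost without any 1 of the 4 fetal liver Fr.B/C arrays or without bone marrow Fr.B/C array 3 or 4 (adjusted p up to 0.141), and the Fr.A call without Fr.A array 3 or 4 of either tissue (adjusted p up to 0.124).

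Erythroid markers moved with tissue, where 13.9% of all genes tested were higher in fetal liver Fr.B/C and 12.2% in fetal liver Fr.A. Of 10, 8 were higher in fetal liver Fr.B/C and 9 in fetal liver Fr.A, and their mean log2 ratio was 1.83 to 2.76 in fetal liver Fr.B/C and 1.68 to 3.14 in fetal liver Fr.A, against 0.28 to 0.51 in bone marrow Fr.B/C and 0.59 to 0.73 in bone marrow Fr.A. Of 11 B-lineage markers, fetal liver had 6 lower in Fr.B/C and 4 lower in Fr.A, beside 14.7% and 17.1% of all genes tested. Of 10 natural killer and T cell markers, it had 4 lower and 1 higher in Fr.B/C and 5 lower in Fr.A. Of 13 myeloid markers, 4 were lower in Fr.B/C, and 4 were lower and 3 higher in Fr.A. Of 8 plasmacytoid dendritic cell markers, 3 were lower and 2 higher in fetal liver at each stage. The part of these cells in the differences of tissue was not tested.

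Arrays numbered 3 and 4 differed from those numbered 1 and 2 within groups, most for the 10 genes in bone marrow. In every group these sets were also scanned on different days, so that array set and scan day cannot be told apart. In bone marrow Fr.B/C, 8 of the 10 genes were higher on both arrays 3 and 4 than on both arrays 1 and 2, and none was lower, while among all genes tested 32.9% were higher and 23.1% lower. In bone marrow Fr.A it was 5 of 10 higher and none lower, beside 26.3% and 26.1%. Both bone marrow counts include Egr3, whose probe was well above background on 0 of 4 Fr.B/C arrays and 3 of 4 Fr.A arrays there. In fetal liver Fr.B/C 5 were higher and 1 lower, beside 34.5% and 24.6%, and in fetal liver Fr.A 1 was higher and 1 lower, beside 21.0% and 24.3%. Myeloid markers moved with the same arrays: their mean log2 ratio on arrays 3 and 4 minus that on arrays 1 and 2 was 0.52 in fetal liver Fr.B/C, 0.66 in fetal liver Fr.A, 0.52 in bone marrow Fr.B/C and 0.55 in bone marrow Fr.A. For erythroid markers it was 0.88 in fetal liver Fr.B/C, 1.40 in fetal liver Fr.A, 0.17 in bone marrow Fr.B/C and -0.03 in bone marrow Fr.A, and for B-lineage markers it lay between -0.02 and 0.06. The part of these cells in the values of the 10 genes was not tested. The bone marrow step of Egr2 was 0.57 on arrays 1 and 2 and 1.45 on arrays 3 and 4. The fetal liver step of Egr2 was -0.05 and 0.26 on the same sets. Each call of stage or tissue kept its sign within each set of arrays, but the calls come from these same arrays. Where the arrays of a pair of groups do not overlap, that sign is fixed in advance, so this is no separate support. With arrays 1 and 2, and 3 and 4, averaged as if they were 1 replicate each, Egr1 and Dusp1 still passed at the step in both tissues and Egr2 in bone marrow, Jun passed between tissues at both stages, Junb in Fr.A and Egr2 in Fr.B/C, while the other calls did not pass.

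Several of the 10 genes varied together from array to array within groups. Over the 45 pairs of genes, the correlation of deviations from group means had a median of 0.46 and was below 0 for 4 pairs. The deviations of Jun and Dusp1 from their group means correlated at r = 0.90 over the 16 arrays, those of Egr2 and Dusp1 at 0.80, those of Fos and Jun at 0.77 and those of Jund and Ier2 at 0.77. The lowest pair was Fos with Fosb at -0.18. These are descriptions without a baseline from other pairs of genes, and the points share arrays, array sets, scan days and the reference RNA. The pairs include those of Egr3, which was near background. The 8 other genes whose pattern over the 16 arrays was most like the mean of the 10 were Lman2l (r = 0.97), Cchcr1 and Tsc22d3 (both 0.96), Isoc1, Tmem120a, Rhoj and Plekhg2 (all 0.95) and Slc11a2 (0.94), out of 13596 with a symbol. Tsc22d3, a glucocorticoid-induced leucine zipper gene, was 0.52 ± 0.16 higher in Fr.B/C of fetal liver (adjusted p = 0.0239) and 0.53 ± 0.16 higher in Fr.B/C of bone marrow (adjusted p = 0.0151). The mean of the 10 itself rises at the step, so a gene this like it is bound to rise, and its step is no separate support.

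Among other immediate early genes, the step of Sgk1 was larger than that of Egr1 in both tissues, and that of Tnfaip3 in bone marrow. Of 36 listed, 35 were tested. At the step to Fr.B/C, 12 rose and 5 fell in fetal liver, and 14 rose and 5 fell in bone marrow. The medians were 0.25 and 0.15. Over all genes tested, 22.7% passed at this step in fetal liver and 32.2% in bone marrow. Sgk1, a serum- and glucocorticoid-regulated kinase, was at 0.43, 0.38, -0.19 and -0.02 in fetal liver Fr.B/C, against -2.12, -1.55, -2.46 and -2.46 in fetal liver Fr.A, a step of 2.30 ± 0.18 (adjusted p = 1.75e-07). In bone marrow its step was 3.33 ± 0.18 (adjusted p = 2.2e-09). Tnfaip3, the A20 inhibitor of NF-kappaB signals, rose by 1.80 ± 0.12 in fetal liver and by 2.54 ± 0.12 in bone marrow. Trib1, a pseudokinase that directs C/EBP proteins to degradation, rose by 0.62 ± 0.11 in fetal liver and by 1.75 ± 0.11 in bone marrow. Btg2, an antiproliferative gene, rose by 0.37 ± 0.09 in fetal liver and by 0.89 ± 0.09 in bone marrow. Of the 35 genes, the fetal liver step minus the bone marrow step passed above 0 for 3 and below 0 for 7, and did not pass for 25. Over all genes tested 7.34% passed, and 59.4% of those calls were above 0. The 3 genes above 0 are not among those named here. For Sgk1, Tnfaip3, Trib1 and Btg2 the fetal liver step was smaller than the bone marrow step, in the direction seen for Egr2. The differences were -1.03 for Sgk1, -0.74 for Tnfaip3, -1.13 for Trib1 and -0.52 for Btg2 (adjusted p from 0.00045 to 0.0248). Zfp36, which destabilises mRNAs with AU-rich elements, rose by 0.70 ± 0.17 in fetal liver and by 0.66 ± 0.17 in bone marrow.

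**Figure D5:**
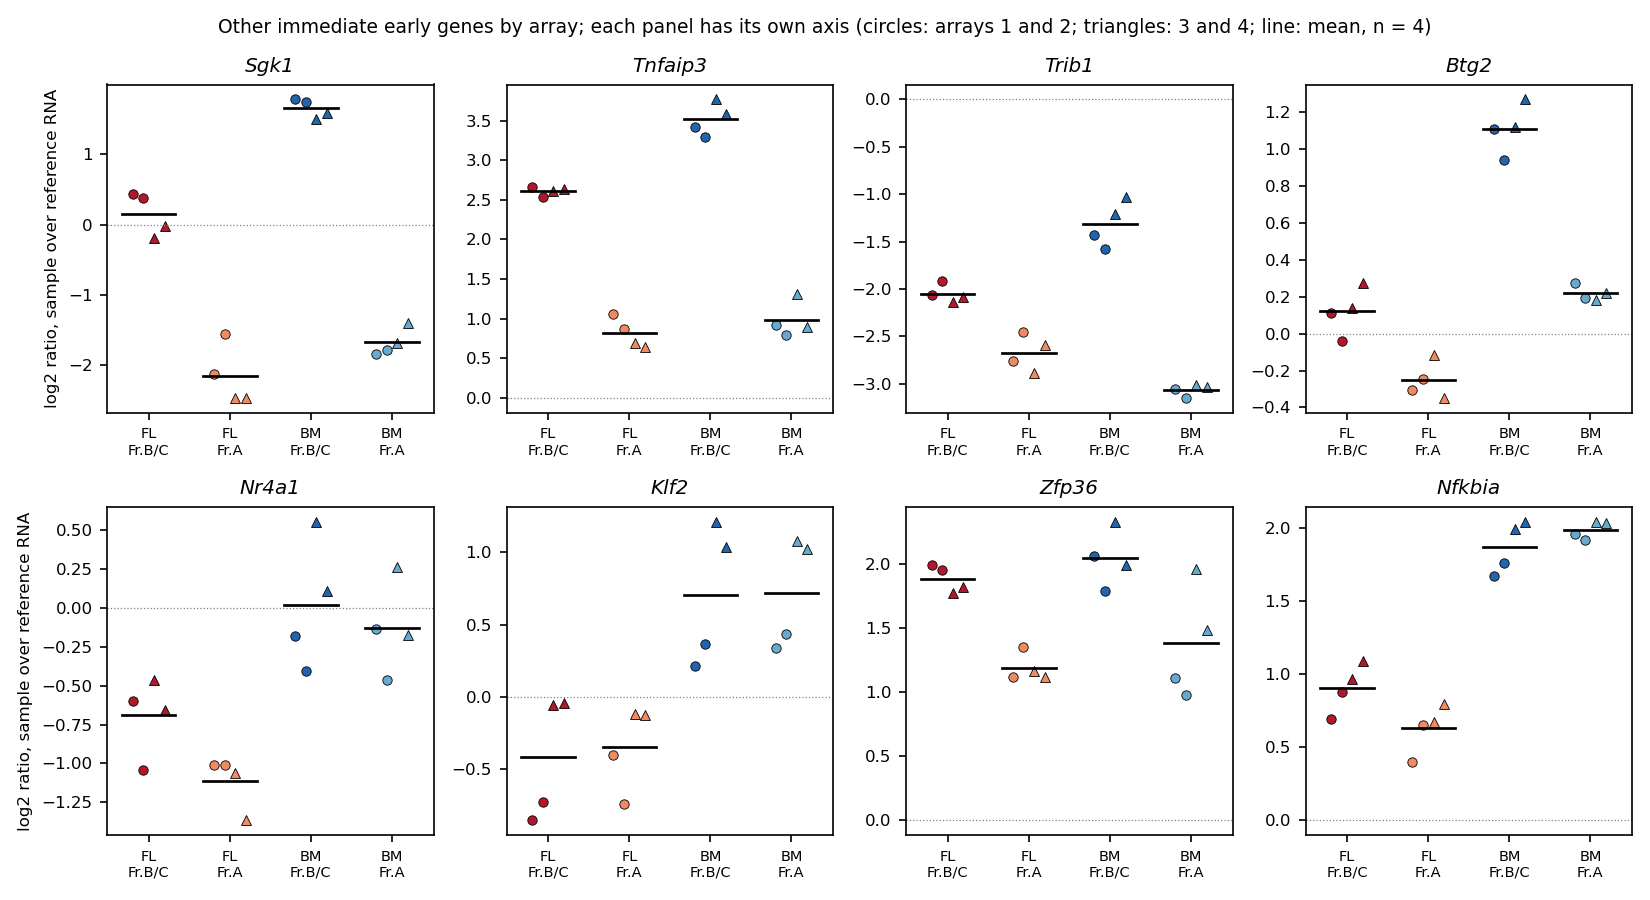
Log2 ratio of sample over reference RNA (vertical axis, scaled per gene) for 8 other immediate early genes in the 4 groups (horizontal axis), with points for arrays and lines for means of 4 arrays. Tnfaip3 lies between 2.54 and 2.66 in fetal liver Fr.B/C, between 0.64 and 1.05 in fetal liver Fr.A, between 3.29 and 3.77 in bone marrow Fr.B/C and between 0.80 and 1.31 in bone marrow Fr.A.

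Between tissues, 1 gene of the same list was higher in fetal liver, 18 were lower and 16 did not pass in Fr.B/C, and 5 were higher, 15 lower and 15 did not pass in Fr.A. The medians were -0.54 in Fr.B/C and -0.21 in Fr.A, beside 0.0135 and -0.0146 over all genes tested. The share of all genes tested that passed was 28.6% in Fr.B/C and 29.3% in Fr.A. Nfkbia, an inhibitor of NF-kappaB, differed by -0.96 ± 0.11 in Fr.B/C and -1.36 ± 0.11 in Fr.A. Klf2, a zinc-finger factor of lymphocyte quiescence, differed by -1.13 ± 0.26 in Fr.B/C and -1.07 ± 0.26 in Fr.A. Nr4a1, an orphan nuclear receptor induced by antigen receptor signals, differed by -0.71 ± 0.16 in Fr.B/C and -0.98 ± 0.16 in Fr.A. The step of neither Klf2 nor Nr4a1 passed in either tissue.

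Partners of the FOS and JUN proteins passed at the step in shares near those of all genes tested. Those that passed fell, apart from Fosl2. Of 14 listed, 13 were tested, leaving out Atf3, and 1 rose and 3 fell in fetal liver while 5 fell in bone marrow. Over all genes tested, the share that passed was 22.7% in fetal liver, 12.7% lower, and 32.2% in bone marrow, 18.7% lower. Batf, which pairs with JUN proteins in lymphocytes, fell by 1.46 ± 0.19 in fetal liver and fell by 1.52 ± 0.19 in bone marrow on the log2 scale. Jdp2, a JUN dimerisation partner that represses AP-1, fell by 1.18 ± 0.13 in fetal liver and fell by 1.40 ± 0.13 in bone marrow. The small MAF genes Maff and Mafg had bone marrow steps of -0.61 ± 0.15 and -0.39 ± 0.11, both falls that passed. Fosl2, a FOS gene, rose by 0.46 ± 0.13 in fetal liver (adjusted p = 0.0183) and was 0.08 ± 0.13 higher in bone marrow Fr.B/C (adjusted p = 0.703). Between tissues 3 were lower in Fr.B/C, and 3 lower and 1 higher in Fr.A, beside 28.6% and 29.3% of all genes tested. Jdp2 was lower in fetal liver, with differences of -0.80 ± 0.13 in Fr.B/C and -1.03 ± 0.13 in Fr.A.

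Upstream regulators changed in both directions. The share that passed at the step was near that of all genes tested, 22.7% in fetal liver and 32.2% in bone marrow. Of 31 MAP kinase pathway and SRF regulators 29 were tested, and 2 rose and 5 fell at the step in fetal liver while 7 rose and 3 fell in bone marrow. Crem, a CREB family member, fell by 1.29 ± 0.15 in fetal liver and fell by 1.41 ± 0.15 in bone marrow. Braf, a kinase at the head of the ERK cascade, fell by 0.67 ± 0.12 in fetal liver and fell by 1.13 ± 0.12 in bone marrow. Nras was higher in fetal liver by 0.82 ± 0.14 in Fr.B/C and by 0.92 ± 0.14 in Fr.A. Map2k6, a kinase that activates p38, was 1.00 ± 0.14 higher in fetal liver Fr.B/C and 0.84 ± 0.14 higher in fetal liver Fr.A. Srf itself differed by -0.18 ± 0.14 at the step in both tissues (adjusted p = 0.415 in fetal liver and 0.381 in bone marrow). Between tissues 2 regulators were higher and 5 lower in Fr.B/C, and 3 were higher and 1 lower in Fr.A. The shares of all genes tested that passed were 28.6% in Fr.B/C and 29.3% in Fr.A.

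Of 16 feedback inhibitors of MAP kinases and EGR corepressors 15 were tested. At the step 1 rose and 5 fell in fetal liver, and 2 rose and 4 fell in bone marrow. The shares of all genes tested that passed there were 22.7% and 32.2%. Dusp6, an ERK phosphatase, was at -1.06, -0.69, -1.46 and -1.05 in fetal liver Fr.B/C, against -0.24, 0.63, -0.20 and 0.07 in fetal liver Fr.A, a step of -1.13 ± 0.23 (adjusted p = 0.00177). In bone marrow it fell by 1.03 ± 0.23 (adjusted p = 0.00248). Dusp6 thus fell where Dusp1 rose. Dusp4 fell by 1.61 ± 0.16 in fetal liver and fell by 1.03 ± 0.16 in bone marrow, and Spry1 fell by 1.17 ± 0.17 in fetal liver and fell by 0.68 ± 0.17 in bone marrow. Dusp16, a phosphatase of JNK and p38, rose by 0.72 ± 0.15 in fetal liver and by 1.73 ± 0.15 in bone marrow. Nab1, a corepressor of EGR proteins, was lower in fetal liver, with differences of -0.70 ± 0.12 in Fr.B/C and -0.42 ± 0.12 in Fr.A. Between tissues 2 of these genes were higher and 4 lower in Fr.B/C, and 3 were higher and 3 lower in Fr.A. The shares of all genes tested that passed were 28.6% and 29.3%.

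Genes that respond to other kinds of stress were read beside these. The heat shock genes passed at the step in shares near those of all genes tested, 22.7% in fetal liver and 32.2% in bone marrow. Of 14 tested heat shock genes of 15, 1 rose and 2 fell at the step in fetal liver, and 1 rose and 3 fell in bone marrow. Hspa1a, the inducible HSP70, was 0.29 ± 0.14 higher in Fr.B/C of fetal liver (adjusted p = 0.151) and 0.31 ± 0.14 higher in Fr.B/C of bone marrow (adjusted p = 0.0921), and differed by -0.03 ± 0.14 between tissues in Fr.B/C. Hsp90aa1 fell by 0.58 ± 0.12 in fetal liver and fell by 0.80 ± 0.12 in bone marrow. The mitochondrial chaperonin genes Hspd1 and Hspe1 were higher in fetal liver, by 0.54 ± 0.12 and 1.03 ± 0.16 in Fr.B/C and by 0.70 ± 0.12 and 0.95 ± 0.16 in Fr.A. Bag3, a co-chaperone, rose by 0.57 ± 0.13 in fetal liver and fell by 0.77 ± 0.13 in bone marrow, steps that differed by 1.34 ± 0.18 (adjusted p = 0.000335). Of 9 tested glucocorticoid-induced genes of 10, 4 rose and 2 fell in fetal liver, and 4 rose and 1 fell in bone marrow. Ddit4, an inhibitor of mTORC1, rose by 0.45 ± 0.15 in fetal liver and by 0.43 ± 0.15 in bone marrow. Errfi1, an inhibitor of EGF receptors, was 2.29 ± 0.15 higher in fetal liver Fr.B/C and 1.64 ± 0.15 higher in fetal liver Fr.A. Txnip, a thioredoxin-binding protein, fell by 0.71 ± 0.13 in fetal liver and rose by 0.38 ± 0.13 in bone marrow. Fkbp5, a chaperone of steroid receptors, fell by 0.44 ± 0.10 in fetal liver and fell by 1.37 ± 0.10 in bone marrow. Between tissues 5 heat shock genes were higher and 1 lower in Fr.B/C, and 2 were higher and 2 lower in Fr.A. Of the glucocorticoid-induced genes 5 were lower and 1 higher at both stages. Over all genes tested, 28.6% passed in Fr.B/C and 29.3% in Fr.A. The part of handling or of glucocorticoids in the values of the 10 genes was not tested.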

How the data were processed

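Intensity values are scanner signals and local backgrounds of each spot, which the authors deposited as written by Agilent Feature Extraction (version 8.5.1.1 in the headers). The deposited log10 ratios divide Cy5 by Cy3. The authors' deposited table holds log2 ratios, which ran as sample over reference here (r = 0.930 to 0.951 with the values used, array medians -0.00731 to 0.0202). The submitters' processing notes name limma, and its settings are not given in the sources used here.

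Signals were background-corrected by normexp (offset 50) and loess-normalized within each array, with control spots at weight 0, in limma 3.58.1 (with data.table, version 1.17.8, in R 4.3.3). Ratios were turned to sample over reference (sample in Cy5 on arrays 1 and 3, in Cy3 on 2 and 4), outlier spots were left out and spots of a probe were averaged. Probes well above background on at least 3 of 4 arrays of a group and usable on at least 12 arrays were kept, 27522 of 41174, and the brightest probe stood for a gene, which gave 22280 genes or transcripts, 13816 with a symbol. Of all probes 22072 were named by RefSeq accession. The model held 4 group means and the dye, with 11 residual degrees of freedom, and p-values were adjusted over all genes. The second probes were tested in a fit of every kept probe. The script was tested on simulated data. The number of arrays limits the precision.

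Per the labels each sort gave 1 sample of each stage. Deviations from group means of same-numbered arrays of a tissue correlated at 0.249 to 0.381 in fetal liver and 0.425 to 0.520 in bone marrow, and numbers were taken to pair them there, although 2 of the 4 fetal liver arrays correlated higher with another number (0.268 and 0.423). The 10 genes and all lists were chosen with earlier results of these data known. Of each list up to 4 genes with the smallest adjusted p were named, besides Atf3, Fosl2, Nr4a1, Klf2, Zfp36, Btg2, Srf, Dusp6, Hspa1a and Tsc22d3, and the 8 genes most like the set. Alternatives were the processed signals, median centring, the deposited table, no filter, no dye term, averaged array pairs, the mean of probes, a replicate block, scan day as a random block and leaving out each array, and, added after seeing the data, scan day as a fixed block and every kept probe.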

Additional observations from a re-analysis of the deposited data

Results flagged for a closer look

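In 3 of 48 sets of 4 arrays (each of the 12 probes in each group), 1 array stood apart from the other 3 by the test of Dixon, which chance gives in about 1 of 20 sets. Junb was at -0.14 on fetal liver Fr.B/C array 1 by its brighter probe, with the others between -0.46 and -0.41. Egr2 was at -0.19 on fetal liver Fr.A array 1, with the others between -0.32 and -0.30. Ier2 was at 0.47 on bone marrow Fr.A array 4 by its brighter probe, with the others between 0.15 and 0.20. The step of Egr2 from Fr.A to Fr.B/C differed between the tissues, at -0.90 for fetal liver minus bone marrow on the log2 scale (adjusted p = 0.0375 in limma, negative in each of the 11 other settings and lost in 5 of them).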

How the results depend on the processing

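With arrays 1 and 2, and 3 and 4, averaged, 2 of the 10 genes passed at the fetal liver step, 3 at the bone marrow step, 2 between tissues in Fr.A and 0 in the difference of steps, where fewer samples were tested. Median centring left 3 at the fetal liver step and 0 in the difference of steps, and no filter on dim probes left 2 between tissues in Fr.A and 0 in the difference of steps. The processed signals and the deposited table also left 0 there. The mean of probes, the replicate block, and scan day as a fixed or a random block gave 2 there, Junb beside Egr2. The cause was not tested. The replicate block gave 6 between tissues in Fr.B/C, adding Junb, Jund and Dusp1, but numbers do not pair samples across tissues (correlations of -0.26 to 0.48). It changed no call of either step. The bone marrow step of Ier2 turned to -0.0167 (adjusted p = 0.940) with the mean of both probes, which differ in sign. Leaving out 1 array gave 3 to 5 genes at the fetal liver step, 6 to 7 at the bone marrow step, 2 to 4 between tissues in Fr.B/C, 2 to 4 in Fr.A and 0 to 2 in the difference of steps. Between tissues in Fr.A the count was 2 without array 3 or 4 of either tissue, and at the fetal liver step 3 without array 4 of Fr.A or of Fr.B/C. Of 533 other values of results that passed, 454 stayed past the threshold, 78 did not and 1 turned. Egr3 and the second Ier2 probe lie near background, which limits what they show. Signals of Fos, Fosb and fetal liver Egr2 were also low, so a small difference there does not show that no change occurred.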
